A study of Capra hircus with 72 samples.

Results

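Gene expression in the retrotrapezoid nucleus (RTN) was compared between goats kept under moderate and under mild chronic hypercapnia, a lasting excess of CO2 in the body. The comparison takes every RTN library of these conditions, 12 of the 72 in the series, with 6 in each group. All came from female goats (Capra hircus). The mild group breathed 6% CO2 for 14 days, and the moderate group breathed 6% CO2 for 7 days and then 8% CO2 for another 7 days. In the same region 6 libraries of goats kept in room air for 14 days give the background. The series also holds the ventral respiratory column (VRC), the nucleus of the solitary tract (NTS) and the medial prefrontal cortex (mPFC) under the same conditions. Both groups spent their first 7 days at 6%, so the groups differ in the CO2 of the last 7 days, and the libraries show the end of each exposure. The labels say nothing of blood gases, breathing or the dissection, and the study design states comparisons of each hypercapnia with room air, not of moderate with mild.

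The RTN lies near the ventral surface of the rostral medulla and is one of the main central chemoreceptors. Its neurons use glutamate, carry the peptide neuromedin B (NMB), and are excited by CO2 and acid, in part through the proton receptor GPR4 and the potassium channel KCNK5. They drive the respiratory rhythm network so that breathing rises with CO2, and they receive input from serotonin neurons of the nearby raphe and from CO2-sensitive astrocytes.

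The tissue was bulk medulla. In deposited RPKM, counts scaled to gene length and library size, the 12 libraries had a median of 26.2 for NMB and 6.65 for GPR4. In NTS, mPFC and VRC the medians were 19.2, 14.75 and 12.15 for NMB and 5.52, 3.75 and 7.96 for GPR4. KCNK5 was at 1.085 in RTN, 0.204 in NTS, 0.946 in mPFC and 0.899 in VRC. The RTN ranges of NMB, GPR4 and KCNK5 overlapped those of the other regions. SLC17A6, a vesicular glutamate transporter, was at 4.91 in RTN, 27.0 in NTS, 4.65 in mPFC and 19.0 in VRC. The RTN samples also held serotonin neurons, with a median RPKM of 10.7 for TPH2 and 15.2 for SLC6A4, and motor neurons, with 16.9 for CHAT and 405 for PRPH. TBR1, a transcription factor of cortical neurons, stood at 0.00499 in RTN and 13.7 in mPFC. Library totals ran from 16.98 to 21.82 M counts in the mild group and from 13.77 to 31.88 M in the moderate group. Moderate replicate 5 stood apart: its Neurons list, the mean log2(CPM + 0.5) of 13 pan-neuronal genes, was at 7.86 against 8.43 to 8.89 in the other moderate libraries, and its myelin list was at 8.00 against 7.18 to 7.52. CPM are counts scaled to a common library size with TMM factors. Mild replicate 1 had the lowest Neurons list of its group, 8.17 against 8.58 to 8.79. Leaving out moderate replicate 5 from the RTN fit changed some gene lists. Where it turned the sign of a list median printed below, the value without it is given as well. The same holds where it moved a printed median, or a printed count at an unadjusted p under 0.05, by over 1.5 times. Lists not printed below also turned. Among them were endothelium (median 0.093, and -0.072 without it) and pericytes and smooth muscle (0.012, and -0.07 without it).

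No gene passed an adjusted p of 0.05 with edgeR among 15343 tested (0.0%), and the smallest adjusted p was 0.175. At an unadjusted p under 0.05 edgeR gave 1620 genes (10.6%), of which 684 (4.46%) were higher and 936 (6.1%) lower in the moderate group. With no difference in any gene 767 would be expected at that level. DESeq2 on the same genes called 125 (0.815%), 100 lower (0.652%) and 25 higher (0.163%), and all 125 were among the 1620. In 142 genes (0.926%) the libraries of the groups did not overlap: the moderate libraries were lower in 114 (0.743%) and higher in 28 (0.182%). Over all genes tested, 47.7% were lower and 52.3% higher in the moderate group, and the median log2 fold change was 0.01. Log2 fold changes below are moderate minus mild with their standard error (SE), and levels are mean CPM ± SD with n = 6. No named gene passed edgeR's adjusted threshold over all 18 RTN libraries, and those that DESeq2 called are marked. Of the gene lists, those with the most members lower at an unadjusted p under 0.05 were ribosomal proteins (14 of 17), interferon-stimulated genes (12 of 29) and antigen presentation (9 of 12). Those with the most members higher were GABA and glycine transmission (7 of 29) and astrocytes (5 of 19). These and the list counts below stand against 6.1% lower and 4.46% higher of all genes. Without moderate replicate 5, 1325 genes were lower and 1027 higher at that level among 15416.

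**Figure D1:**
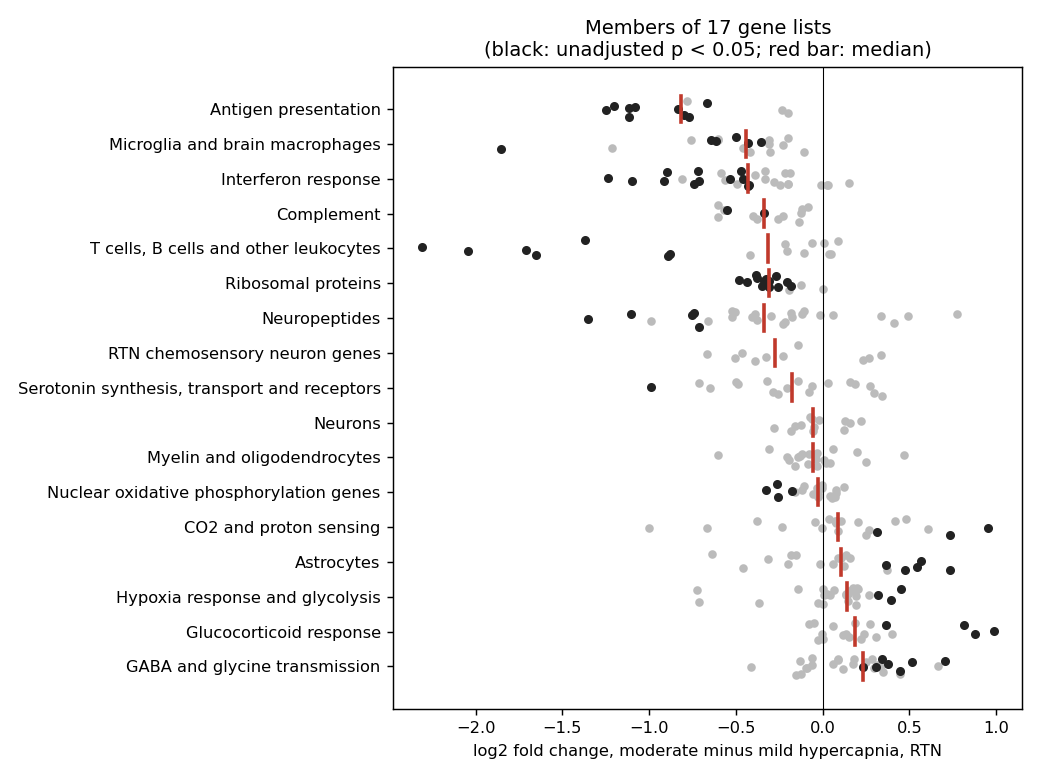
Log2 fold change, moderate minus mild, of each tested member of 17 gene lists in RTN; black points have an unadjusted edgeR p under 0.05 and red bars mark list medians. All 12 antigen presentation, 18 microglial and 17 ribosomal members lie left of 0, and the black points of the GABA and glycine, astrocyte, hypoxia and glucocorticoid lists lie right of it.

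Ribosomal proteins were among the lower genes of smallest p, beside single genes of other functions. SNRPD2, a core protein of the spliceosome's Sm ring, encoded on chromosome 18, ranged over 65.7, 68.7 and 77.4 CPM (lowest, median, highest) in the mild group and 48.0, 52.6 and 57.0 in the moderate group. All 6 moderate libraries lay below all 6 mild ones, the log2 fold change was -0.42 ± 0.08, and room air stood between at 61.3 ± 7.92. DESeq2 called it, with an adjusted p of 0.00354. RPS7 of the small ribosomal subunit ran from 146 through 163 to 189 CPM in mild and from 123 through 131 to 135 in moderate, again without overlap, with a log2 fold change of -0.36 ± 0.07 and 140 ± 14.8 CPM in room air.

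MRPS14, a protein of the mitochondrial ribosome, stood at 28.1 ± 1.80 CPM in mild and 21.7 ± 1.26 in moderate (log2 fold change -0.37 ± 0.08, no overlap). SEC61G, a subunit of the channel that carries new proteins into the endoplasmic reticulum, stood at 63.8 ± 6.50 and 46.6 ± 4.88 CPM, and its groups overlapped: moderate replicate 3 reached 55.8 and the lowest mild library 54.5. The ribosomal proteins RPS10 (93.6 ± 5.42 and 74.0 ± 4.47 CPM), RPL31 (86.0 ± 4.53 and 63.6 ± 1.60) and RPL37 (84.2 ± 9.96 and 60.4 ± 4.84) did not overlap between groups. MIX23 stood at 13.7 ± 0.93 and 10.2 ± 0.52 CPM, without overlap. Each of these genes, from SNRPD2 to MIX23, was called by DESeq2. As they were named for their smallest edgeR p on the same counts, those calls are no separate support.

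The ribosomal protein list had 17 tested members, all with a log2 fold change below 0 (1 of them at -0.0002, and 16 of 17 below 0 with DESeq2), and 14 of the 17 were at an unadjusted p under 0.05 against 6.1% of all genes. Its median log2 fold change was -0.31. DESeq2 called 6 of its members. Over every cytosolic ribosomal protein symbol in the table, 34 of 34 were below 0 and 31 were at an unadjusted p under 0.05, with a median of -0.34. Near-identical ribosomal copies make single values of this family uncertain. The list score ran from 6.86 to 7.12 in the mild group and from 6.64 to 6.85 in the moderate group, so the ranges did not overlap. Room air ran from 6.73 to 7.20 and overlapped both. The list's median was 0.11 for mild against room air and -0.18 for moderate against room air, comparisons that share their libraries with this one. Of 19 nuclear genes of oxidative phosphorylation 13 were lower and 4 were at an unadjusted p under 0.05, with a median of -0.03 (-0.0028 without moderate replicate 5). NDUFA1, of respiratory complex I, stood at 142 ± 16.3 CPM in mild and 113 ± 6.87 in moderate (log2 fold change -0.33 ± 0.09, called by DESeq2), and NDUFB3 of the same complex at 82.3 ± 4.34 and 68.8 ± 3.12, both without overlap.

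Gene length moved with this difference. The ribosomal symbols had a median gene model length of 490.5 bases against 1884 for all genes tested. Genes of at most 500 bases, with the ribosomal ones set aside, numbered 1238, had a median log2 fold change of -0.13, and 72.5% of them were lower in the moderate group. The median was 0.05 for the 4055 genes of 2000 to 4000 bases and -0.03 for the 399 genes over 8000 bases. These short genes took 5.85% to 6.28% of the CPM of the mild libraries, 5.13% to 5.81% of the moderate ones and 5.43% to 6.32% of the room air ones. Across genes, which are not independent replicates, Spearman's rho of length and log2 fold change was 0.162. The part of gene length in the ribosomal difference was not tested.

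**Figure D2:**
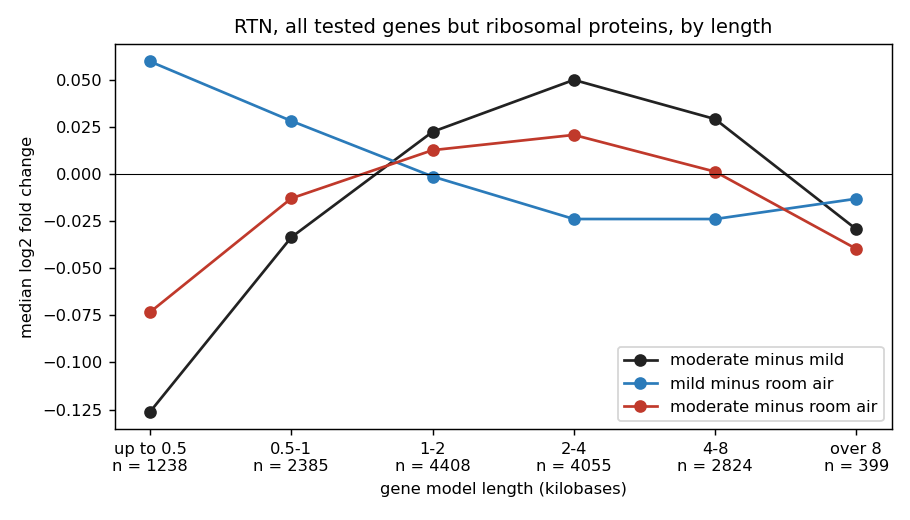
Median log2 fold change in RTN by gene model length in kilobases, for all tested genes but ribosomal proteins, with the number of genes under each bin; lines give moderate minus mild, mild minus room air and moderate minus room air, which share libraries. The moderate minus mild line starts at -0.13 for genes up to 0.5 kilobases and reaches 0.05 at 2 to 4 kilobases.

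Genes that load and present antigen on MHC molecules were lower in the moderate group. HLA-DOB, a chain of the class II peptide-loading regulator on chromosome 23, ranged over 16.8, 18.9 and 24.0 CPM in mild and 9.61, 10.1 and 15.6 in moderate. The groups did not overlap, with a log2 fold change of -0.83 ± 0.17 and a DESeq2 adjusted p of 0.0043, and room air stood at 14.8 ± 4.06. HLA-DMA, which helps class II molecules take up peptides, ran from 11.6 through 15.8 to 20.5 CPM in mild and from 6.52 through 9.57 to 12.9 in moderate (log2 fold change -0.77 ± 0.22, unadjusted p = 0.00209). Its groups overlapped at the edges, and all 6 moderate libraries lay below the mild median. All 12 tested members of the list were lower (47.7% of all genes were), with a median log2 fold change of -0.82. At an unadjusted p under 0.05 were 9 of them (6.1% of all genes were lower at that level). Those 9 were HLA-DOB, HLA-DMA, the protease CTSS, the class II regulator CIITA, HLA-DRA, HLA-DOA, the class I regulator NLRC5 and the immunoproteasome subunits PSMB8 and PSMB9. Without moderate replicate 5, 11 were at that level and the median was -1.02. The list's median was 0.42 for mild against room air and -0.38 for moderate against room air. Reads of near-identical histocompatibility genes may be split, so single values are uncertain. In bulk tissue, fewer cells of a type and less RNA per cell cannot be told apart.

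Interferon-stimulated genes lay on the same side. Of 29 tested, 26 were lower in the moderate group (47.7% of all genes were), with a median of -0.43. At an unadjusted p under 0.05, 12 were lower (6.1% of all genes were) and none higher. IFIT1, an antiviral RNA-binding protein, ran from 10.01 through 21.1 to 28.4 CPM in mild and from 7.98 through 10.1 to 18.4 in moderate. Its relative IFIT3 ran from 21.9 through 30.8 to 42.6 and from 17.3 through 21.3 to 26.2. Log2 fold changes were -0.89 ± 0.26 and -0.53 ± 0.15, the ranges of both genes overlapped, and room air stood at 18.1 ± 7.01 and 24.0 ± 2.56 CPM. The other members at that level were GBP2, RSAD2, CXCL10, IFI44, IFI44L, XAF1, OAS1, IFI6, IRF7 and IRF9.

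Among cytokines and innate genes, CCL8, a chemokine that draws monocytes, had the largest difference of the leading lower genes. It ranged over 6.91, 13.8 and 20.4 CPM in mild and 2.17, 4.86 and 8.47 in moderate, with 9.02 ± 3.00 in room air. The log2 fold change was -1.45 ± 0.33 with a DESeq2 adjusted p of 0.00915, and the groups overlapped through 1 mild library, replicate 5 at 6.91. IL1A, an alarm cytokine of interleukin 1 type, was at 1.33 ± 0.52 and 0.60 ± 0.23 CPM (log2 fold change -1.13 ± 0.32). Of 27 members, 20 were lower (47.7% of all genes were), with a median of -0.21. At an unadjusted p under 0.05 were 5 of them (6.1% of all genes were lower at that level). Without moderate replicate 5 the count at that level was 10 and the median -0.30.

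All 18 tested markers of microglia and brain macrophages were lower in the moderate group (47.7% of all genes were), with a median of -0.44. At an unadjusted p under 0.05 were 6 (6.1% of all genes were lower at that level). AIF1 (Iba1), a calcium-binding protein of microglia, ran from 42.7 through 56.8 to 74.0 CPM in mild and from 23.2 through 34.6 to 57.5 in moderate (log2 fold change -0.61 ± 0.22). The moderate maximum was replicate 5, and the other 5 moderate libraries lay at 44.3 or below. CD163, a haemoglobin scavenger receptor of perivascular macrophages, had a log2 fold change of -1.85 ± 0.71 that rested on mild replicate 3, at 11.01 CPM against 0.35 to 1.75 in the other mild libraries. The microglial list score was 4.68 in moderate replicate 5, against 3.58 to 4.16 in the other moderate libraries and 4.16 to 4.72 in the mild ones. Without moderate replicate 5, 14 of the 18 were at an unadjusted p under 0.05 and the median was -0.67. The list's median was 0.42 for mild against room air and -0.11 for moderate against room air. ADORA3, an adenosine receptor from the purine list, stood at 45.8 ± 11.9 and 30.8 ± 12.7 CPM (unadjusted p = 0.0232). The 23 purine genes had a median of 0.046, with 1 higher and 1 lower at an unadjusted p under 0.05. Without moderate replicate 5 it was 0.026 with 3 lower.

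Leukocyte genes were scarce. CD2, an adhesion molecule of T cells, ran from 1.28 through 1.77 to 2.56 CPM in mild and from 0.38 through 0.53 to 0.90 in moderate, with 0.42 ± 0.36 in room air. ZAP70, a kinase of T cell receptor signalling, ran from 0.51 through 0.77 to 1.45 in mild and from 0 through 0.16 to 0.48 in moderate. Neither gene overlapped between groups, both were called by DESeq2, and log2 fold changes were -1.65 ± 0.40 and -2.31 ± 0.60. Of 16 tested T cell, B cell and other leukocyte markers 12 were lower (47.7% of all genes were). At an unadjusted p under 0.05 were 7 (CD2, ZAP70, CD3D, CD3G, CXCR3, NKG7 and CD4), against 6.1% lower of all genes. CD3E, CD247 and CD5 had log2 fold changes between -0.11 and 0.05. The list median was -0.32, and -0.69 without moderate replicate 5. The part of leukocytes in the antigen presentation and interferon differences was not tested.

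Complement genes, whose products tag cells for removal, were lower in 13 of 13 cases (47.7% of all genes were) with a median of -0.34. Of them 2 were at an unadjusted p under 0.05 (6.1% of all genes were lower at that level). C1QB and C1QC stand in the microglial list too. C1R, a protease of the first complement component, stood at 42.5 ± 7.42 CPM in mild and 33.6 ± 6.18 in moderate, and SERPING1, which inhibits it, at 57.9 ± 30.6 and 39.5 ± 6.29. Both overlapped between groups. Leaving out moderate replicate 5 gave 4 members at that level. Of 14 markers of dividing cells 11 were lower and 3 were at an unadjusted p under 0.05, against 6.1% lower of all genes. Among them TOP2A, which untangles DNA, stood at 2.34 ± 0.90 and 0.99 ± 0.86 CPM, and UBE2C, of the mitotic ubiquitin machinery, at 1.55 ± 0.92 and 0.53 ± 0.51.

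**Figure D3:**
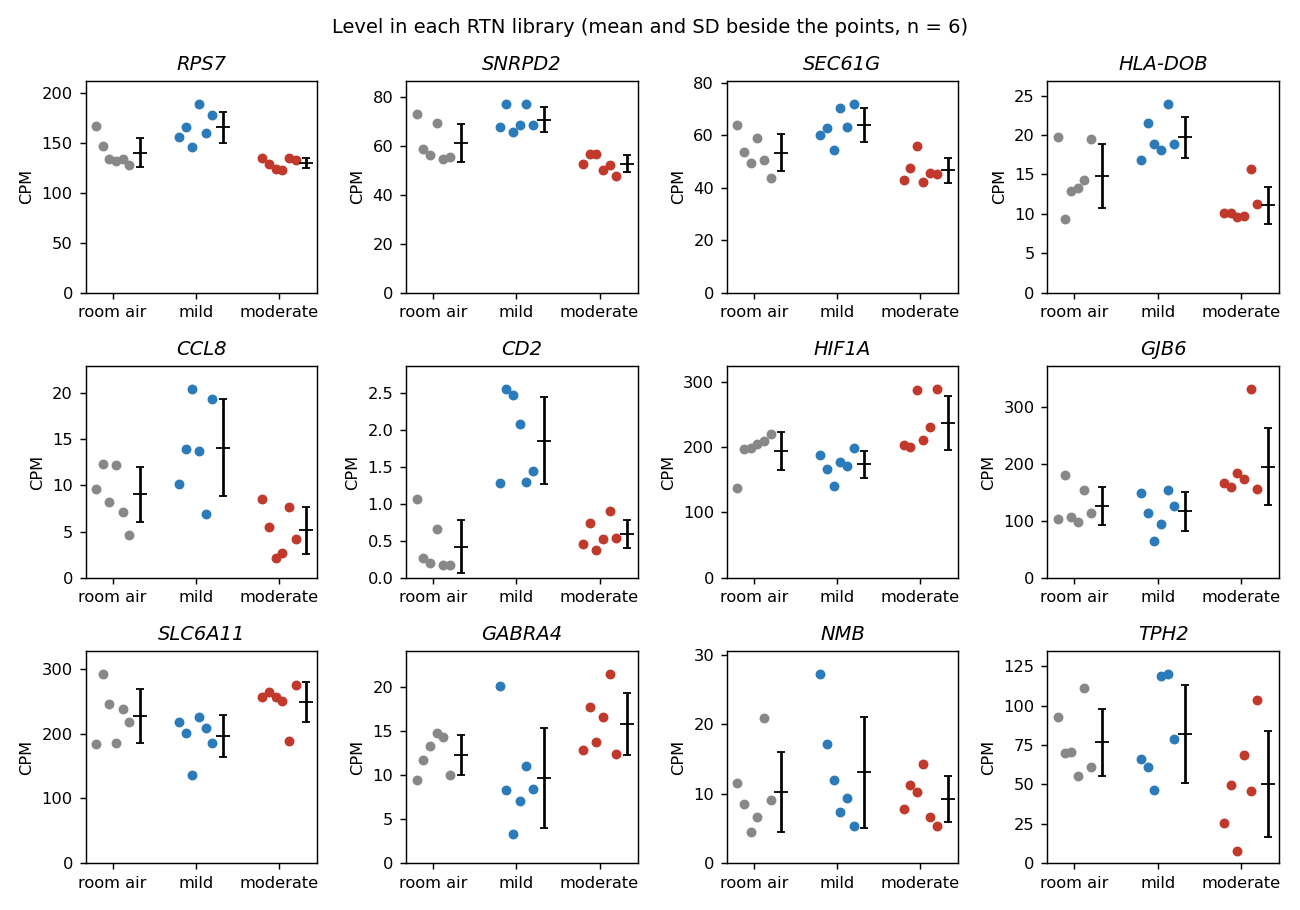
CPM of 12 genes in each RTN library in room air, mild and moderate hypercapnia, with the mean and SD beside the 6 points of each group. The groups of RPS7, SNRPD2, HLA-DOB, CD2, HIF1A and GJB6 do not overlap between mild and moderate, whereas NMB and TPH2 spread widely within each group.

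The genes that led on the higher side included MTMR10, a myotubularin-related protein. It ran from 37.2 through 45.7 to 80.7 CPM in mild and from 66.3 through 77.3 to 94.6 in moderate (log2 fold change 0.66 ± 0.15), with 60.0 ± 6.90 in room air. The overlap came from mild replicate 1, at 80.7; without that library edgeR called MTMR10, with a log2 fold change of 0.85 and an adjusted p of 0.00569. SLC19A1, the reduced folate carrier, ran from 34.5 through 49.5 to 67.2 CPM in mild and from 68.6 through 71.5 to 96.6 in moderate, without overlap (log2 fold change 0.63 ± 0.15).

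The glycogen primer GYG2 stood at 9.05 ± 1.30 CPM in mild and 14.7 ± 3.63 in moderate, and the glucose 6-phosphate transporter SLC37A4 at 22.8 ± 2.39 and 30.2 ± 3.60. TPCN1, a cation channel of endosomes and lysosomes, stood at 30.6 ± 2.49 and 45.3 ± 13.8 CPM, with moderate replicate 3 alone at 72.4. Smaller differences with tight groups were those of CPNE1, a calcium-dependent phospholipid-binding protein (60.2 ± 4.16 and 72.4 ± 5.46 CPM), JOSD1, a deubiquitinase (26.0 ± 2.37 and 32.9 ± 2.35), and GALNT11, which starts O-linked glycans (160 ± 12.9 and 194 ± 17.6). JOSD1 and GALNT11 did not overlap between groups. All 8 genes of this group were called by DESeq2, and the 6 moderate libraries of each lay above the mild median. Both traits follow in large part from the choice of these genes. They were named for smallest p with at least 5 of 6 moderate libraries above that median, and DESeq2 used the same counts.

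Most genes of GABA and glycine transmission were higher in the moderate group. SLC6A11, a GABA transporter of astrocytes encoded on chromosome 22, ran from 137 through 205 to 226 CPM in mild and from 188 through 257 to 274 in moderate, with 227 ± 41.1 in room air. Its log2 fold change was 0.34 ± 0.13 (unadjusted p = 0.015), and the groups overlapped through moderate replicate 5 alone (0.41 without it). GABRA4, a subunit of the GABA-A receptor encoded on chromosome 6, ran from 3.24 through 8.37 to 20.1 CPM in mild and from 12.4 through 15.2 to 21.5 in moderate, with 12.3 ± 2.25 in room air. Its log2 fold change was 0.70 ± 0.28 (unadjusted p = 0.021), and the groups overlapped through mild replicate 1 alone (1.05 without it). Of 29 tested members 21 were higher, 7 at an unadjusted p under 0.05 and none lower at that level, against 4.46% higher of all genes. The members at that level included, beside SLC6A11 and GABRA4, the receptor subunits GABRG1 and GABBR1, and ABAT, which breaks GABA down. The enzymes that make GABA, GAD1 and GAD2, had log2 fold changes of 0.12 and 0.06, and the vesicular transporter SLC32A1 -0.06. The list median was 0.23, -0.19 for mild against room air and -0.0045 for moderate against room air. SLC6A5, which takes glycine back into inhibitory neurons, stood at 73.5 ± 33.6 and 87.6 ± 48.0 CPM (log2 fold change 0.25 ± 0.34).

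Ion channel and glutamate lists had few members at an unadjusted p under 0.05. Of 27 voltage-gated potassium channel genes 22 were higher, 2 at that level (4.46% of all genes were), with a median of 0.11. The median was 0.17 without moderate replicate 5, with 3 higher and 2 lower at that level. The 25 sodium, calcium and HCN channel genes had a median of 0.10 with none at that level, and 0.20 with 4 higher without that library. The 29 glutamate transmission genes had a median of 0.11 with 1 higher at that level, and 0.083 with 5 higher without it.

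Astrocyte genes divided. GJB6 (connexin 30), a gap junction protein of astrocytes also listed for CO2 sensing, ran from 64.4 through 120 to 155 CPM in mild and from 156 through 170 to 332 in moderate. Its groups did not overlap, the log2 fold change was 0.73 ± 0.22, and the highest value was that of moderate replicate 5. SLC1A2, the main glutamate transporter of astrocytes, stood at 39.1 ± 10.7 and 54.2 ± 7.34 CPM. Of 19 tested members 5 were higher at an unadjusted p under 0.05 (4.46% of all genes were), FGFR3 and NDRG2 also among them, with none lower at that level. In contrast, GFAP, the intermediate filament of reactive astrocytes, had a log2 fold change of 0.16 ± 0.24 (0.39 without mild replicate 1), AQP4 of -0.20 and VIM of -0.46. The list median was 0.11. With mild replicate 1 and moderate replicate 5 both left out it was 0.24, with 8 members higher and 2 lower at that level, and without moderate replicate 5 alone it was 0.14, with 7 higher and 2 lower.

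Of 21 genes of CO2 and proton sensing 15 were higher (52.3% of all genes were), with a median of 0.09. At an unadjusted p under 0.05 were 3 of them (4.46% of all genes were higher at that level). At that level 2 were higher and 1 lower without moderate replicate 5. In all 12 libraries the 3 were GJB6, KCNK3 (TASK-1), an acid-sensitive potassium channel, and KCNJ16, a pH-sensitive inward rectifier. KCNK3 was scarce, at 0.91 ± 0.40 and 1.77 ± 1.09 CPM, and KCNJ16 stood at 59.5 ± 14.4 and 74.0 ± 12.5, with overlapping groups for both. KCNJ10, the glial partner of KCNJ16, had a log2 fold change of 0.09 ± 0.12 (0.21 without mild replicate 1). The 12 carbonic anhydrases tested, which convert CO2 to bicarbonate and acid, had a median of 0.10 with none at an unadjusted p under 0.05, and 0.023 with 1 higher without moderate replicate 5.

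HIF1A, the oxygen-regulated transcription factor, ran from 140 through 174 to 198 CPM in mild and from 200 through 221 to 289 in moderate. All 6 moderate libraries lay above all mild ones, with a log2 fold change of 0.45 ± 0.12, a DESeq2 adjusted p of 0.0494 and 194 ± 28.9 CPM in room air. BNIP3, a mitophagy receptor and HIF target, stood at 209 ± 19.5 and 261 ± 61.4 CPM, with moderate replicate 3 at 382. Of 26 genes of the hypoxia response and glycolysis 21 were higher (52.3% of all genes were), with a median of 0.14. At an unadjusted p under 0.05 were 3, the third being EPAS1 (4.46% of all genes were higher at that level). Without moderate replicate 5, 6 were higher and 1 lower at that level. The HIF targets VEGFA, PGK1 and ALDOA had log2 fold changes of 0.00, 0.01 and 0.00, and CA9 of -0.37.

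Genes that glucocorticoids induce were higher in 15 of 19 cases (52.3% of all genes were), with a median of 0.19. At an unadjusted p under 0.05 were 4 of them (4.46% of all genes were higher at that level). ARRDC2, an arrestin-domain protein, ran from 33.3 through 44.9 to 81.2 CPM in mild and from 52.5 through 82.2 to 162 in moderate (log2 fold change 0.88 ± 0.31). PDK4, which turns off pyruvate dehydrogenase, stood at 50.9 ± 24.0 and 89.6 ± 43.0 CPM. Both overlapped between groups. FKBP5, a cochaperone of the glucocorticoid receptor and a standard target of it, ran from 9.02 through 17.98 to 38.8 CPM in mild and from 19.97 through 27.7 to 118 in moderate, where replicate 3 was far above the rest; it was named after its values were seen. The clock genes included PER1, also a glucocorticoid target, at 19.0 ± 4.13 and 24.5 ± 4.21 CPM, and CRY2, a clock repressor, which ran from 121 through 164 to 178 in mild and from 181 through 185 to 202 in moderate, without overlap. Over the 21 clock genes the median was 0.01 with 3 higher at an unadjusted p under 0.05, and -0.045 with 1 higher without moderate replicate 5. Neither glucocorticoid levels nor the hour of tissue collection were known.

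Cholesterol synthesis and uptake genes were higher in 20 of 24 cases (52.3% of all genes were), with a median of 0.10. At an unadjusted p under 0.05 were 4 (6 without moderate replicate 5), against 4.46% higher of all genes. HMGCS1, an early enzyme of the pathway, stood at 231 ± 19.97 and 272 ± 40.2 CPM. Of 11 markers of oligodendrocyte precursors 3 were higher at that level. CSPG4 (NG2) ran from 5.33 through 6.15 to 7.33 CPM in mild and from 8.61 through 8.97 to 14.7 in moderate, without overlap. Its maximum was moderate replicate 5, and the log2 fold change was 0.67 with that library and 0.53 without it. PDGFRA stood at 25.5 ± 8.02 and 36.8 ± 9.70. The list median was 0.03 and turned to -0.17 without moderate replicate 5, with 2 members higher and 2 lower at that level. Of the 20 myelin genes tested 13 were lower, none at an unadjusted p under 0.05, with a median of -0.06. With moderate replicate 5, the moderate library highest in myelin genes, left out, 17 were lower, 6 of them at that level, with a median of -0.20. HEYL, a Notch effector of vessel walls, stood at 3.07 ± 1.15 and 6.07 ± 1.91 CPM (called by DESeq2), and NTRK2, the receptor of BDNF, at 324 ± 64.4 and 427 ± 72.8. The 32 vascular Notch, VEGF and barrier genes had a median of 0.09 with 2 higher at that level. Without moderate replicate 5 it was -0.0081 with 1 higher. The 27 neurotrophin and growth factor genes had a median of 0.094, with 2 higher and 1 lower at that level. Without moderate replicate 5 it was -0.076, with 4 higher and 2 lower. NR4A1, an immediate early transcription factor, ran from 7.10 through 9.45 to 11 CPM in mild and from 11.6 through 12.4 to 16.7 in moderate, without overlap. The 16 neuronal activity genes it belongs to had a median of 0.04, with 1 higher and 2 lower at that level, and -0.017 with 1 higher and 1 lower without moderate replicate 5. The 27 genes of the AP-1 and stress list had a median of 0.0027 with 1 higher at that level, and -0.17 with 19 lower, 1 of them at that level, without that library.

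**Figure D4:**
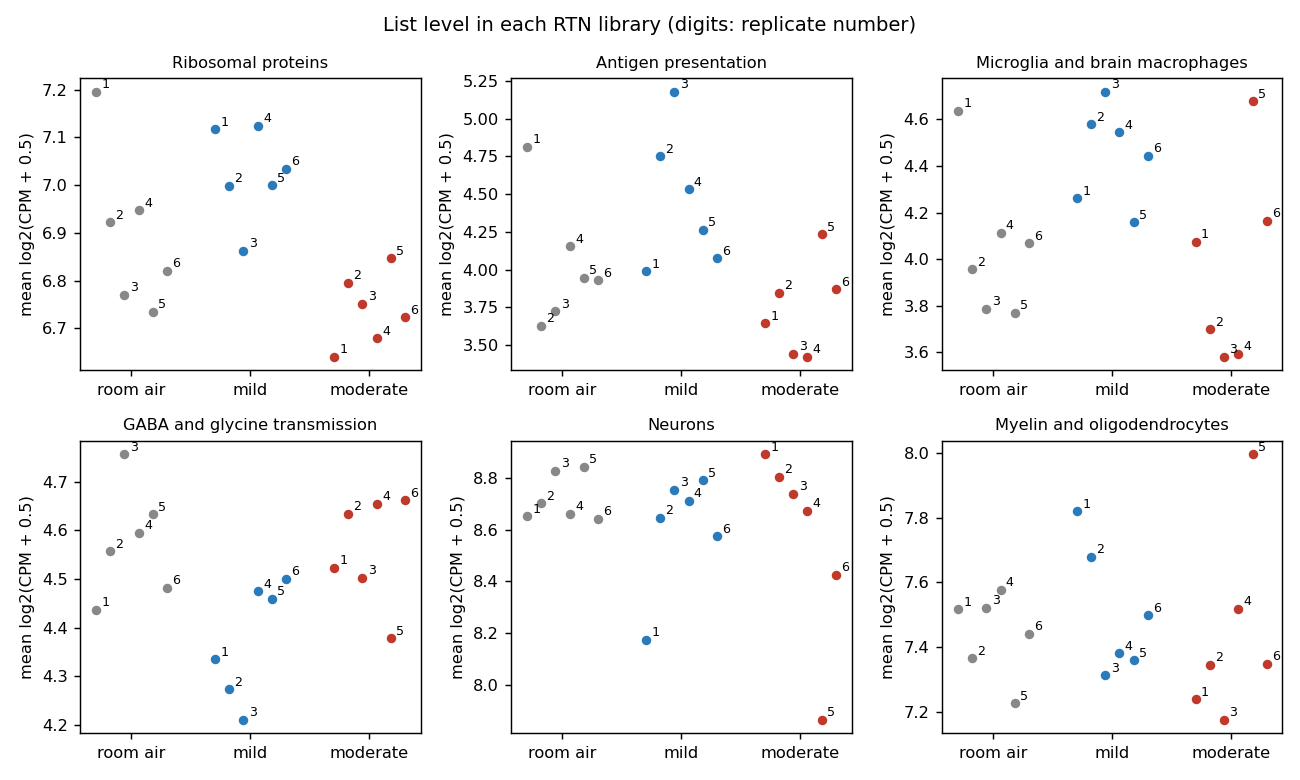
Mean log2(CPM + 0.5) of 6 gene lists in each RTN library, with replicate digits, in room air, mild and moderate hypercapnia. The ribosomal lists of mild and moderate do not overlap, and moderate replicate 5 is lowest for Neurons at 7.86 and highest for myelin at 8.00 and, within its group, for microglia at 4.68.

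The genes that mark RTN chemosensory neurons did not separate the groups. NMB ran from 5.37 through 10.6 to 27.2 CPM in mild and from 5.26 through 9.05 to 14.2 in moderate (log2 fold change -0.50 ± 0.38, unadjusted p = 0.201). Without mild replicate 1 that log2 fold change was -0.15. KCNK5 was scarce, at 2.53 ± 0.75 and 1.60 ± 0.69 CPM (unadjusted p = 0.066), and all 6 moderate libraries lay below the mild median.

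GPR4 stood at 6.92 ± 0.80 and 8.34 ± 3.37 CPM, and the vesicular glutamate transporter SLC17A6 at 28.1 ± 17.5 and 25.4 ± 15.0. The peptide ADCYAP1 (PACAP) stood at 36.1 ± 9.48 and 27.4 ± 8.78 CPM and galanin, GAL, at 8.09 ± 4.68 and 10.2 ± 7.51. Over the 10 list members tested 7 were lower, with a median of -0.28 and none at an unadjusted p under 0.05 (1 lower without moderate replicate 5). The spread of SLC17A6 within each group was larger than the difference between the group means.

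The serotonin neuron genes named here were lower in mean and spread widely. TPH2, which makes serotonin in neurons, ran from 46.5 through 72.5 to 120 CPM in mild and from 7.31 through 47.8 to 104 in moderate (log2 fold change -0.71 ± 0.40, unadjusted p = 0.0907). SLC6A4, the serotonin transporter, ran from 19.7 through 37.9 to 55.3 and from 2.98 through 26.2 to 54.0. Moderate replicate 3 was lowest for both genes. LMX1B, a transcription factor of serotonin neurons, was scarce, at 0.88 ± 0.41 and 0.46 ± 0.25 CPM. It was the only member of 18 at an unadjusted p under 0.05. Of the 18 members of the serotonin list, receptors included, 12 were lower and 6 higher, with a list median of -0.17. The amount of raphe tissue in each sample was not known, and its part in these values was not tested.

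Catecholamine values turned on single libraries. DBH, which makes noradrenaline, was at 73.3 CPM in moderate replicate 5 and 41.0 in mild replicate 1, with a median of 10.6 in moderate and 13.4 in mild. Its log2 fold change was 0.13 ± 0.57 and turned to -0.97 without moderate replicate 5. The catecholamine list median was 0.26, and -0.18 without that library. Of 21 cholinergic and motor neuron genes 17 were higher, 1 at an unadjusted p under 0.05, with a median of 0.16, and without moderate replicate 5 the median was 0.25 with 2 higher at that level. CHAT, which makes acetylcholine, ran from 21.0 through 31.0 to 68.0 CPM in mild and from 9.43 through 52.5 to 84.9 in moderate, where replicate 5 was lowest (log2 fold change 0.54 ± 0.37). CHRNA3, a nicotinic receptor subunit, stood at 1.37 ± 0.91 and 2.38 ± 1.15 CPM (unadjusted p = 0.0473). PNMT, the adrenaline enzyme, was at 0 RPKM in the median RTN library and was not tested.

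Neuropeptide genes were lower in 21 of 26 cases (47.7% of all genes were), with a median of -0.34. At an unadjusted p under 0.05 were 5 of them (6.1% of all genes were lower at that level). TAC1, the precursor of substance P, which stimulates breathing, ran from 91.8 through 117 to 152 CPM in mild and from 28.2 through 74.9 to 99.0 in moderate (log2 fold change -0.75 ± 0.22), with 92.8 ± 18.9 in room air. CRH, the corticotropin-releasing peptide, stood at 3.96 ± 2.36 and 1.54 ± 0.83 CPM, and SST, the inhibitory peptide somatostatin, at 141 ± 88.1 and 65.8 ± 60.1. All 6 moderate libraries of TAC1 and CRH lay below the mild median, and the ranges of all 3 genes overlapped. NMU and TAC3 were the other members at that level.

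The 33 synaptic vesicle genes had a median of 0.04 with none at an unadjusted p under 0.05, and 0.076 with 2 higher without moderate replicate 5. The 13 Neurons markers had a median of -0.05 with none at that level, and 0.036 with 1 higher without that library. The 27 heat shock and unfolded protein genes had a median of -0.06, with 2 lower at that level, and 3 lower and 1 higher without it. The 12 genes of the respiratory rhythm list had a median of 0.0065 with 1 lower, and 0.042 with none without it. Among cerebellar markers ZIC1, a transcription factor of granule cells, ran from 0.41 through 0.67 to 0.87 CPM in mild and from 0.13 through 0.19 to 0.33 in moderate, without overlap (log2 fold change -1.61 ± 0.35, called by DESeq2), and the median of the 9 tested was -0.18.

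Whether the difference was particular to the RTN was tested on all 72 libraries as the RTN difference minus the mean of the same difference in mPFC, NTS and VRC. No gene of 16372 passed an adjusted p of 0.05 (0.0%), and 271 (1.66%) were at an unadjusted p under 0.05 with edgeR; every adjusted p rounded to 1.00. That share was below the 0.05 expected with no difference in any gene, so the genes named here are not set apart from chance. A test that called no gene does not show that the regions changed alike. The design gives 6 animals per condition, so the 24 libraries of a condition share animals across regions, while this fit takes them as independent. With condition and replicate number read together as an animal block, which the labels do not state, 0 genes passed and 408 were at an unadjusted p under 0.05. DESeq2 called 1 gene, MCOLN3, for which edgeR's unadjusted p was 0.305. The named genes of smallest p were ZNF12, a zinc finger protein, with 0.37 in RTN against -0.24 to 0.11 in the other regions, KRT27, a keratin (-3.19 against -0.31 to 0.24), CAMK1G, a calcium/calmodulin kinase (-0.23 against 0.17 to 0.89), CHAD, a cartilage matrix protein (1.63 against -0.33 to -0.08), and TMEM215, a membrane protein (3.07 against -0.40 to 0.75). KRT27 and TMEM215 were below 0.5 CPM in both RTN groups, and CHAD at 43.4 ± 79.1 CPM in the moderate group had an SD above its mean. The unadjusted p of CHAD was 0.00262, and 0.0895 with the animal block.

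The immune and ribosomal lists lower in RTN also had medians below 0 in NTS and VRC. The antigen presentation median, moderate minus mild, was -0.82 in RTN, -0.93 in NTS and -1.23 in VRC, against 0.34 in mPFC, and that of microglia was -0.44, -0.36, -0.70 and 0.23. The ribosomal list stood at -0.31 in RTN, -0.18 in NTS, -0.28 in VRC and 0.09 in mPFC. GABA and glycine genes stood at 0.23, 0.15, 0.36 and -0.07. The neuropeptide list was at -0.38 in RTN against 0.04 in NTS, 0.15 in VRC and -0.0014 in mPFC. In that fit 2 of its 28 members were at an unadjusted p under 0.05 for the difference between regions, against 1.66% of all genes. They were TAC1 (difference -0.80 ± 0.33) and SST (-1.07 ± 0.48). The choroid plexus (9 members), cerebellar (11) and respiratory rhythm (13) lists also had 2 each at that level. The median difference was -0.423 for neuropeptides and -0.415 for ependyma and motile cilia. None of the 51 lists had a member that passed the adjusted threshold. The leukocyte list held 22 members in that fit, against 16 in the RTN fit, and its RTN median was -0.87.

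**Figure D5:**
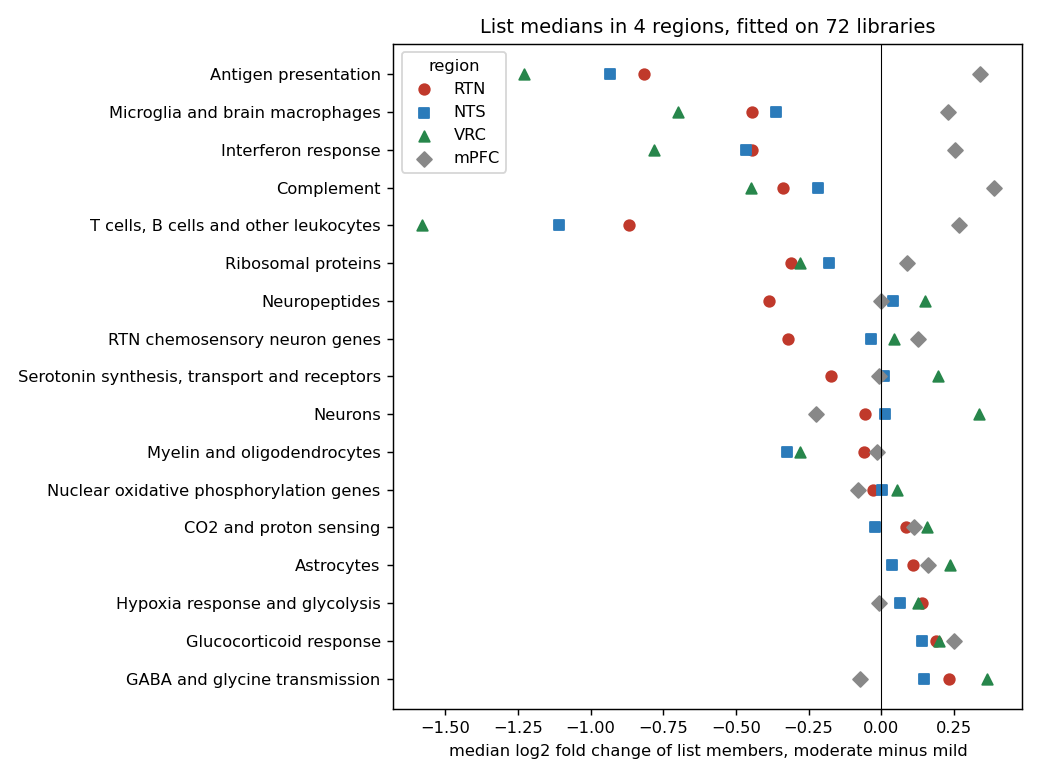
Median log2 fold change, moderate minus mild, of the same 17 gene lists in RTN, NTS, VRC and mPFC from the fit of 72 libraries. The antigen presentation medians are -0.82, -0.93 and -1.23 in the brainstem regions and 0.34 in mPFC, and the neuropeptide median is -0.38 in RTN and between -0.0014 and 0.15 elsewhere.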

How the data were processed

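Bulk RNA of 12 RTN samples, 6 per condition, was compared, with 6 room air samples in the same fit. Raw counts per gene and RPKM values were deposited by the authors, per the file headers, for 21343 protein-coding genes, 6643 of them without a symbol; a further column, of the unit other, holds gene length. The submitters' processing notes list the tools FastQC, Trimmomatic, STAR, featureCounts and also edgeR. Versions, genome build, strand setting and treatment of shared reads: not given in the sources used here. Only chromosomes are therefore printed. Libraries were made from total RNA with a SMARTer low-input kit, per the labels' protocols.

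Counts were fitted in R 4.3.3 with edgeR 4.0.16, using TMM factors, genes kept by filterByExpr at a minimum count of 10, the quasi-likelihood F-test and Benjamini-Hochberg adjustment at 0.05. The fit was also run on counts simulated from its own model with no library effect, so that run does not bear on the count of genes called here. DESeq2 1.42.0, limma 3.58.1, other filters, factors, covariates and left-out libraries were alternatives. Named genes were, in each direction, the 10 of smallest p (symbol present, mean CPM of 5 or more, 5 or more of the 6 moderate libraries on that side of the mild median), the 2 of smallest p in each of 51 lists, a set of RTN markers, and 5 for the region test. Some of these are not printed, and the other genes were named after their values were seen. Members and lists were chosen with earlier results of these data known. Of 1160 list genes 164 were not found by symbol, TACR1 and MBP among them. Libraries of a group were no near copies (chi-square per degree of freedom 16.1 to 152). The study design gives 6 animals per condition, and same-numbered libraries of the conditions are not taken as pairs. The region test treats the 72 libraries as independent. Values of scarce genes, near 1 CPM, rest on few counts.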

Additional observations from a re-analysis of the deposited data

Results flagged for a closer look

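Single libraries far from the other 5 of their group, by Dixon's test at its 95% critical value of 0.625, were found in 19 of 170 groups of gene levels and list scores. Chance gives about 1 in 20 for groups chosen without regard to their values. Some of these genes were named after their values were seen, so the count does not measure an excess of such libraries.

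In moderate replicate 5, the library of lowest quality weight (0.338), the highest values of the group were those of HLA-DOB (15.6 CPM), CSPG4 (14.7), GJB6 (332), UBE2C (1.54) and DBH (73.3), and SLC6A11 had its lowest value of the group (188). In moderate replicate 3 they were those of TPCN1 (72.4 CPM), GALNT11 (229), BNIP3 (382) and FKBP5 (118). In moderate replicate 6 they were those of TTR (35.5 CPM) and the choroid plexus list (score 3.50, mean log2 CPM).

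In the mild group MTMR10 was highest in replicate 1 (80.7 CPM), which also had the lowest Neurons score (8.17). In mild replicate 3 CD163 (11 CPM) and CHAT (68.0) were highest, and the neuropeptide score lowest (3.22). NDUFA1 was highest in mild replicate 4 (175 CPM) and TTR in mild replicate 5 (312 CPM).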

How the results depend on the processing

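The count of genes called by edgeR, 0, also held with RLE factors, no low-count filter, limma with quality weights, the 2 groups alone, a myelin covariate and the newer quasi-likelihood form. It was 125 with DESeq2 and 2 with mild replicate 1 and moderate replicate 5 both left out (MTMR10, and ITGAL at -1.63), an alternative chosen after seeing the data; leaving out 1 library at a time gave 0 to 1. At an unadjusted p under 0.05 those left-out fits gave 1288 to 2352 genes, the most without moderate replicate 5. The cause of these differences was not tested. Same-numbered libraries correlated at -0.274 to 0.228, with 2 of 6 pairs over 0.1, and 2 of 6 mild libraries were closest to their own number; with the replicate block 0 genes were called and 1453 were at that level. For the difference between regions, DESeq2 gave 1 and the other alternatives 0; at an unadjusted p under 0.05 the main count was 271 genes, 408 with the animal block and 450 with no low-count filter.

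Among named genes, signs turned for GAL (-0.12 with limma weights, -0.056 with both libraries out) and DBH (-0.23 with the block, -0.60 with limma weights, -0.56 with both out; -0.97 to 0.54 with 1 library out). With 1 library out SLC17A6 ranged from -0.46 to 0.12 and SLC6A5 from -0.023 to 0.45.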

Other observations

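Genes encoded in the mitochondrial genome were examined after seeing the data. Of 13 tested, 11 were lower in the moderate group, with a median log2 fold change of -0.15. At an unadjusted p under 0.05 with edgeR were 4, against 6.1% lower of all genes. The 4 were COX2 (39.5 ± 14.9 CPM in mild, 23.8 ± 5.80 in moderate, called by DESeq2), ATP8 (13.6 ± 2.87 and 9.25 ± 1.80), ND1 (112 ± 29.4 and 85.5 ± 8.60) and CYTB (288 ± 39.8 and 247 ± 19.97). These code for subunits of the respiratory chain and of ATP synthase. The abundant ND4, at 1034 ± 266.8 and 1057 ± 106.7 CPM, and ND5, at 448 ± 64.5 and 447 ± 48.5, had log2 fold changes of 0.03 and -0.0042. ND2, also abundant, was higher at 326 ± 189 and 421 ± 55.6 CPM, with a log2 fold change of 0.37 ± 0.33. Room air stood at 26.0 ± 5.56 CPM for COX2 and 9.43 ± 1.65 for ATP8, below the mild means.

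TTR, the thyroxine carrier that marks choroid plexus, varied widely between libraries, from 0.47 to 312 CPM in mild and from 0.89 to 35.5 in moderate. Its log2 fold change was -3.15 ± 1.30 (unadjusted p = 0.0259), and it was named after its values were seen.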
